A study of Mus musculus with 2 samples.

Results

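The immunity-related GTPases (IRGs) of the mouse were followed in macrophages sorted from the aorta of ApoE knockout mice that modelled PDR (phlegm-dampness retention) or SKYD (spleen and kidney yang deficiency) syndrome. The members were 10 named genes, Irgm1, Irgm2, Igtp, Iigp1, Tgtp1, Tgtp2, Ifi47, Gm4951, F830016B08Rik and Gm12250, found by symbol among the 54532 genes of the deposited table. Both groups were ApoE-/- mice on a C57BL/6J background, labelled as 6 weeks of age. The PDR mice had high-fat feed for 4 weeks. The SKYD mice first received the antithyroid drug propylthiouracil for 4 weeks, at a daily dose of 10 mg/kg, followed by high-fat feed for 2 weeks. Syndrome, drug, length of high-fat feeding and age at sampling therefore cannot be told apart. The sort used F4/80 and CD11b, surface proteins of the myeloid lineage, and 5 mice were pooled into 1 library per group. No difference given here has a replicate check, and no p-value was computed.

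IRGs are GTP-binding proteins made of a GTPase domain and a helical domain, and mouse cells make them in response to interferon-γ and, for many of them, to type I interferons. They defend the cell from inside. Effector IRGs load onto the membrane of vacuoles that hold parasites such as Toxoplasma gondii or bacteria such as Chlamydia and help to break them, while regulatory IRGs sit on the cell's own membranes and keep the effectors inactive there. In macrophages they are among the most strongly interferon-induced genes, beside the guanylate-binding proteins (GBPs).

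Regulators and effectors differ in the G1 motif, the loop that holds the phosphates of the nucleotide. Effectors carry the usual lysine there and are called GKS proteins, and regulators carry methionine and are called GMS proteins. A search of GENCODE vM21 transcripts (GRCm38) for this motif found it in all 10 members, 3 of them GMS and 7 GKS. The 24 bases that encode the motif are shown for the chromosome 11 members, since they set the order of the results, with the lysine or methionine codon in capitals. Irgm1 (chr11:48866761-48866784, minus strand), Irgm2 (chr11:58219695-58219718, plus strand) and Igtp (chr11:58206275-58206298, plus strand) had the same bases. Tgtp1 (chr11:48987667-48987690, minus strand) and Tgtp2 (chr11:49059534-49059557, minus strand) also shared theirs. The stretches of Ifi47 (chr11:49095648-49095671) and Gm12250 (chr11:58187981-58188004) are on the plus strand. All of these lie in annotated coding exons except that of Gm12250, for which this annotation gives no coding sequence.
Irgm1, Irgm2 and Igtp (GMS): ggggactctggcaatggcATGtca
Tgtp1 and Tgtp2 (GKS): ggggaaacaggcgcagggAAGtcc
Gm12250 (GKS): ggggagacaggggcagggAAGtcc
Ifi47 (GKS): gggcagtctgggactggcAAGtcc

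Levels are given as FPKM (fragments scaled to gene length and to library size), which allows genes of different length to be compared. FPKM times gene length came in steps of 1 read, so that reads per gene could be read back from the table, a total of 23086889 for PDR and of 25427863 for SKYD. Differences are PDR minus SKYD in log2(FPKM + 1), a scale that understates the change of low genes. A gene is called past 2-fold where this difference is above 1 or below -1, so that some genes within 2-fold differ more as a plain ratio of FPKM. Brackets hold 95% limits from the division of a gene's reads over the libraries. They cover counting error only and not the spread between mice, which these libraries cannot show. A gene was tested where its mean FPKM was at least 1, which 10399 genes reached.

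All 10 IRG members were higher in the PDR library, where 49.6% of all tested genes were higher. All 10 were more than 2-fold higher there, against 7.38% of tested genes. On the log2(FPKM + 1) scale 6 were more than 4-fold higher, against 1.87%. As plain ratios of FPKM, Irgm2 (4.92-fold) and F830016B08Rik (7.77-fold) were past 4-fold as well. F830016B08Rik passed the filter only through its level in PDR, whereas the other 9 members had at least 1 FPKM in SKYD. No member was more than 2-fold higher in SKYD, as 6.91% of tested genes were. The median difference of the 10 members was 2.17, against -0.0035 over all tested genes. Together the members had 50783 reads in PDR and 11331 in SKYD, or 0.220% and 0.0446% of the reads on genes. Their summed level was 785 FPKM in PDR and 169 FPKM in SKYD, a 4.64-fold difference (4.54 to 4.74). In a bulk library, fewer cells that express a gene and less RNA per cell cannot be told apart.

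**Figure D1:**
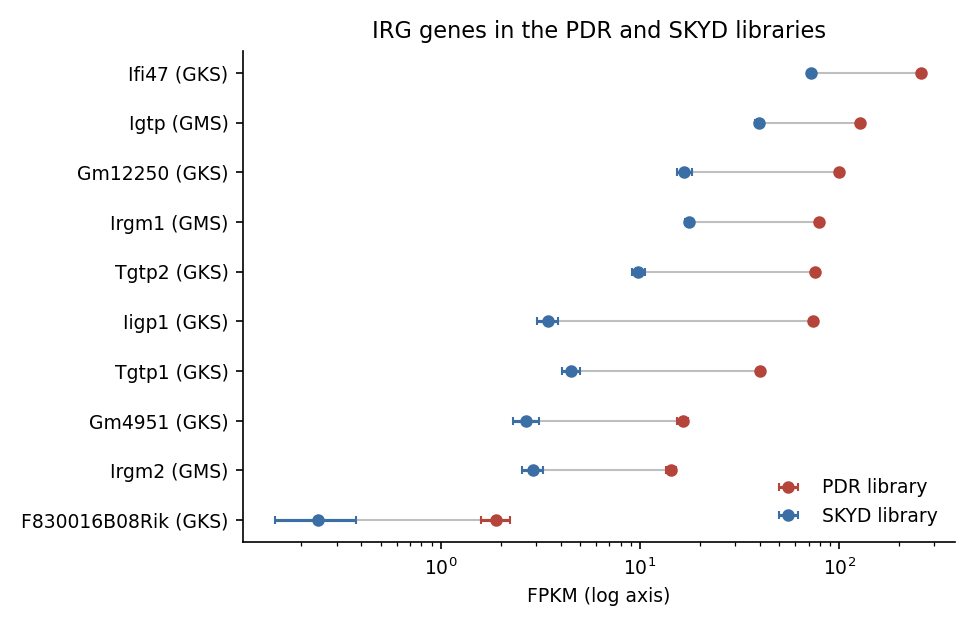
Level of each IRG gene in the PDR library (red) and the SKYD library (blue), in FPKM on a log axis, ordered by mean level, with the subfamily in brackets and bars for the exact 95% Poisson limits of the reads. In all 10 genes the PDR point lies to the right of the SKYD point and the limits do not overlap, and Iigp1 has the widest gap, from 3.45 to 74.1 FPKM.

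All 3 regulators were higher in PDR. Irgm1 (ENSMUSG00000046879, chromosome 11 from 48861968 to 48871683 of GRCm38), which takes part in autophagy and mitochondrial and lysosomal membrane control, had 10788 reads in PDR and 2545 in SKYD. Its level was 79.1 FPKM in PDR and 17.5 FPKM in SKYD, a log2 difference of 2.11 (2.05 to 2.17). Igtp (ENSMUSG00000078853, chromosome 11 from 58199556 to 58207591), also called Irgm3, is the regulator of the endoplasmic reticulum and lipid droplets. It had 6044 and 1992 reads, 127 and 39.4 FPKM, and a log2 difference of 1.67 (1.59 to 1.74). Igtp was the most abundant regulator in both libraries and had the smallest difference of the 3, with limits below those of the other two.

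Irgm2 (ENSMUSG00000069874, chromosome 11 from 58199618 to 58222782), a Golgi-bound regulator that also restrains the response to bacterial lipopolysaccharide, was the least abundant GMS gene. It had 1240 reads in PDR and 268 in SKYD, or 14.3 and 2.91 FPKM, with a log2 difference of 1.97 (1.82 to 2.12). The limits of Irgm1 and Irgm2 overlapped, so that their differences cannot be ordered even against counting error. Irgm2 and Igtp overlap in the annotation, with 4.39% of the exonic bases of Irgm2 and 8.01% of those of Igtp at shared positions, and reads there cannot be assigned to either. Summed over the 3 regulators, the level was 221 FPKM in PDR and 59.8 FPKM in SKYD, 3.69-fold higher in PDR (3.56 to 3.82).

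The effectors included Iigp1, the member with the largest difference. Iigp1 (ENSMUSG00000054072, chromosome 18 from 60376029 to 60392627), also called Irga6 and the best studied effector on the Toxoplasma vacuole, had 5433 reads in PDR and 269 in SKYD. Its level was 74.1 FPKM in PDR and 3.45 FPKM in SKYD, a 21.5-fold difference (19.0 to 24.4) and a log2 difference of 4.08 (3.94 to 4.22). It ranked 22 among the 10399 tested genes by difference in the direction of PDR. No limit of another member reached that of Iigp1. Its level depends on the gene model, since the deposited table scales it by 3121 bases whereas its exons in GENCODE vM21 cover 5823 bases. The ratio between the libraries does not depend on this length.

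Tgtp1 and Tgtp2 encode nearly the same effector, Irgb6, which is among the first IRGs to reach a parasite vacuole. Tgtp1 (ENSMUSG00000078922, chromosome 11 from 48985327 to 48994172) had 3013 reads in PDR and 362 in SKYD, at 40.0 and 4.52 FPKM, a log2 difference of 2.89 (2.76 to 3.03). Tgtp2 (ENSMUSG00000078921, chromosome 11 from 49057194 to 49064206) had 5214 and 719 reads, at 75.6 and 9.79 FPKM, a log2 difference of 2.83 (2.72 to 2.93). After Iigp1 these genes were next by difference in log2(FPKM + 1), and their limits overlapped. The split of reads between them is uncertain. Of the 100-base windows in their transcripts, 70.3% for Tgtp1 and 76.8% for Tgtp2 also occur in the other gene. The sum of their reads, 8227 in PDR and 1081 in SKYD, does not depend on that split. The summed FPKM does so slightly, since the genes are scaled by lengths of 3205 and 2938 bases, and as deposited it was 116 FPKM in PDR and 14.3 FPKM in SKYD, 8.08-fold higher in PDR (7.58 to 8.61).

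Gm12250 (ENSMUSG00000082292, chromosome 11 from 58187739 to 58189012) encodes Irgb10, an effector that acts with GBPs on bacterial membranes. The deposited table calls it a processed pseudogene and scales it by a length of 1274 bases, whereas RefSeq lists a protein-coding gene, so its level in FPKM depends on the gene model. It had 2973 reads in PDR and 531 in SKYD, at 99.4 and 16.7 FPKM. The log2 difference was 2.51 (2.38 to 2.63), and none of its 100-base windows occurred in transcripts of another gene.

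Ifi47 (ENSMUSG00000078920, chromosome 11 from 49076587 to 49096974), or Irgd, was the most abundant member in both libraries. It had 14916 reads in PDR and 4448 in SKYD, at 257 and 72.0 FPKM, a log2 difference of 1.82 (1.77 to 1.87). Among the effectors, only F830016B08Rik had a smaller log2 difference, and by the ratio of FPKM Ifi47 had the smallest, 3.57-fold (3.45 to 3.69). By level it ranked 309 of 10399 tested genes in PDR and 1060 in SKYD. In the annotation 8.77% of its exonic bases overlap Olfr56 or the opposite-strand pseudogene Gm12188, and these had 10 and 4 reads and 0 and 0 reads in PDR and SKYD.

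The other effectors of chromosome 18 were low. Gm4951 (ENSMUSG00000073555, from 60212080 to 60247820) had 1016 reads in PDR and 177 in SKYD, at 16.4 and 2.68 FPKM, a log2 difference of 2.24 (2.06 to 2.42). F830016B08Rik (ENSMUSG00000090942, from 60293380 to 60303016) had 146 and 20 reads, at 1.89 and 0.243 FPKM, a log2 difference of 1.22 (1.02 to 1.37). As a ratio of FPKM it was 7.77-fold higher in PDR (4.85 to 13.1), so its low rank on the log2(FPKM + 1) scale comes with its low level. F830016B08Rik passed the filter only through its level in PDR, whereas the other 9 members had at least 1 FPKM in SKYD as well.

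**Figure D2:**
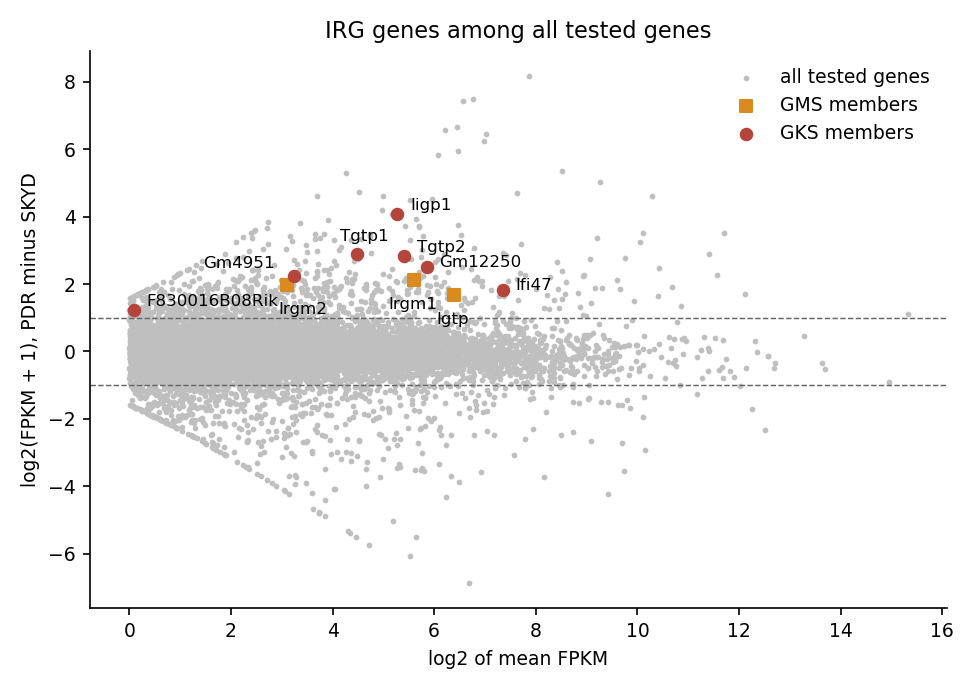
Difference of each tested gene, log2(FPKM + 1) in PDR minus SKYD, against the log2 of its mean FPKM, with all 10399 tested genes in grey, GMS members as orange squares, GKS members as red circles and dashed lines at a 2-fold difference. The members lie between 1.22 and 4.08, all above the upper dashed line, over a wide range of mean levels.

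By level, the family ran in a similar order in both libraries, and the moves were swaps between neighbours. In PDR the order was Ifi47, Igtp, Gm12250, Irgm1, Tgtp2, Iigp1, Tgtp1, Gm4951, Irgm2 and F830016B08Rik. The counting limits of Irgm1 and Tgtp2, and of Tgtp2 and Iigp1, overlapped, and those of all other neighbours in this order did not. In SKYD the order was Ifi47, Igtp, Irgm1, Gm12250, Tgtp2, Tgtp1, Iigp1, Irgm2, Gm4951 and F830016B08Rik, with overlap between Irgm1 and Gm12250, between Iigp1 and Irgm2, and between Irgm2 and Gm4951. The places of Iigp1 and Gm12250 rest on their gene models, and those of Tgtp1 and Tgtp2 on the uncertain split of reads between them.

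The make-up of the family also differed. Ifi47 held 32.7% of the summed FPKM in PDR and 42.5% in SKYD, and Igtp held 16.2% and 23.3%. Iigp1 held 9.44% in PDR and 2.04% in SKYD at the deposited length. Regulators made up 28.1% of the family in PDR and 35.4% in SKYD, a ratio of regulators to effectors of 0.391 and 0.547. The effectors were 5.16-fold higher in PDR (5.02 to 5.30), above the 3.69-fold of the regulators by more than counting error. Without Iigp1 the effectors were 4.63-fold higher (4.50 to 4.76), still above the limits of the regulators. By gene the classes overlapped, since the effector Ifi47 was 3.57-fold higher and the regulators Igtp, Irgm1 and Irgm2 were 3.23-fold, 4.51-fold and 4.92-fold higher. The other effectors ranged from 5.96-fold (Gm12250) to 21.5-fold (Iigp1).

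**Figure D3:**
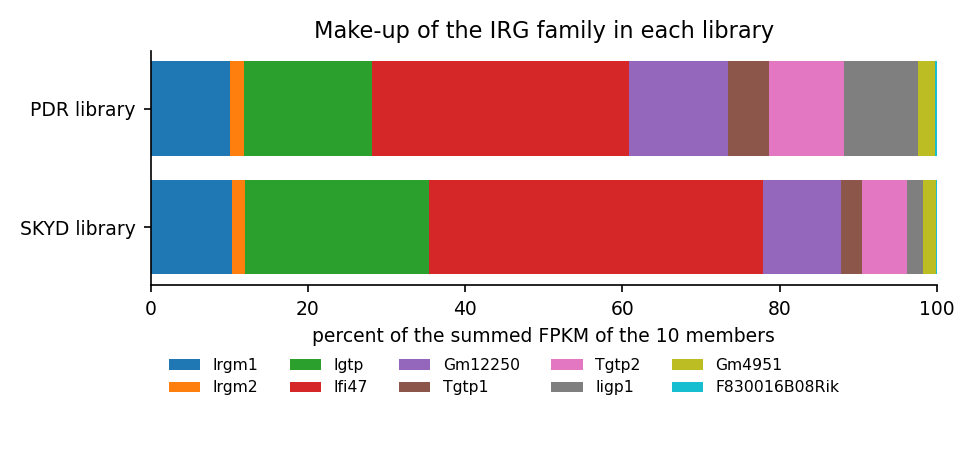
Share of each member in the summed FPKM of the 10 IRG genes, as stacked bars from 0 to 100 percent for the PDR and the SKYD library. Ifi47 is the widest segment in both, and the segment of Iigp1 is 9.44% in PDR and 2.04% in SKYD.

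IRG genes lie in blocks, and the difference was measured along them. The chromosome 11 members form a block with Irgm1, Tgtp1, Tgtp2 and Ifi47, 4.35-fold higher in PDR by summed FPKM (4.24 to 4.46), and another with Gm12250, Igtp and Irgm2, 4.08-fold higher (3.91 to 4.26). The chromosome 18 members were 14.5-fold higher by sum (13.2 to 15.9), most of which was Iigp1. Within 100 kb of a member lie 31 other genes of the table outside the lists of IRG genes, of which 9 were tested. Their median difference was -0.13. Psme2b, a proteasome activator gene with a close relative elsewhere in the genome, had 4007 reads in PDR and 1692 in SKYD and a log2 difference of 1.32. The pseudogene BC023105 had 1.24 and passed the filter only through PDR (2.05 and 0.293 FPKM), and Smim3 had -1.22. The other 6 tested neighbours were within 2-fold.

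**Figure D4:**
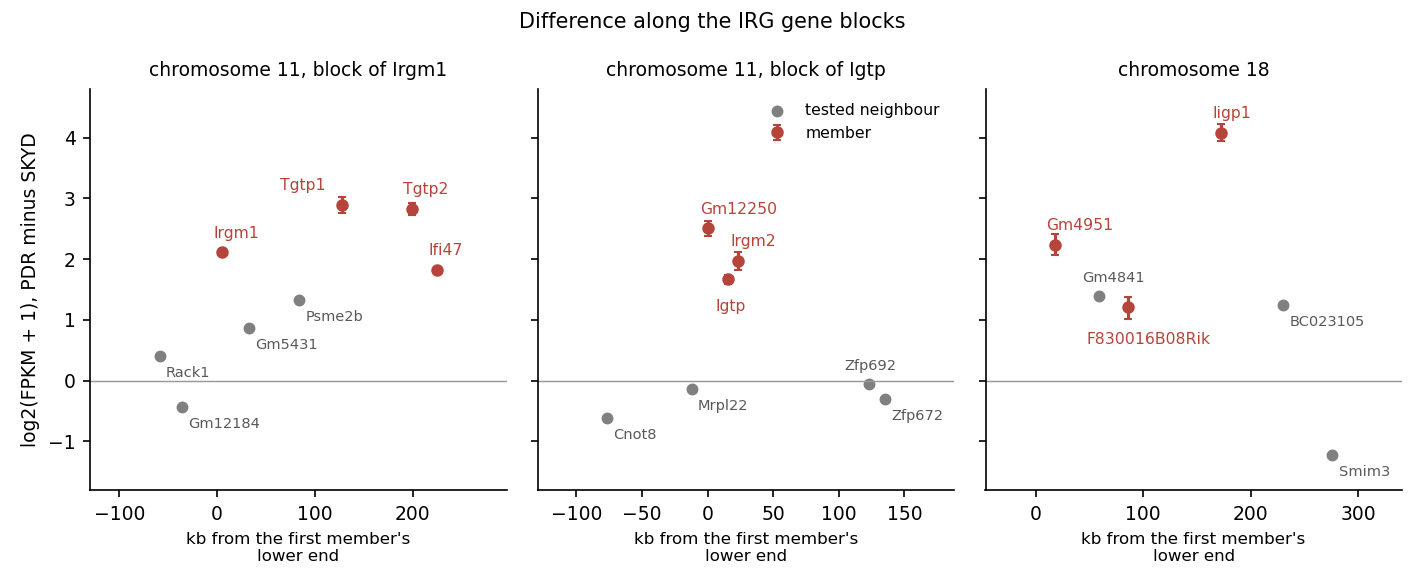
Log2(FPKM + 1) in PDR minus SKYD against the position of each gene's middle, in kb from the lower end of the first member, for both blocks of chromosome 11 and for chromosome 18. Members are red with 95% counting limits and tested neighbours within 100 kb are grey, and the red points from 1.22 to 4.08 stand among neighbours that lie between -1.22 and 1.39.

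Genes with IRG-like sequence outside the named members were mostly low. Gm4841, next to F830016B08Rik, had 130 reads in PDR and 9 in SKYD, at 1.95 and 0.127 FPKM, a log2 difference of 1.39 (1.20 to 1.51), and it passed the filter only through PDR. Gm5431, in the Irgm1 block, had 432 and 208 reads, at 4.76 and 2.15 FPKM, and a log2 difference of 0.87 (0.69 to 1.05). As a ratio of FPKM it was 2.21-fold higher in PDR (1.87 to 2.62). Gm12185, which overlaps Tgtp1 in the annotation, had 104 and 15 reads at a mean FPKM under 1. Of 7 such genes 3 were tested, and 1 of these, Gm4841, was past 2-fold in log2(FPKM + 1), against 7.38% of all tested genes. 9930111J21Rik1 (73 and 49 reads) and 9930111J21Rik2 (81 and 79 reads) stayed under a mean FPKM of 1. Irgc1 and Irgq, relatives that lie on chromosome 7 and are not known as interferon-induced, had log2 differences of 0.22 and -0.11. Irgq, with 34 reads in PDR and 51 in SKYD, was under a mean FPKM of 1 and was not tested.

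The promoters of the members were examined because the genes differed in the same direction. RefSeq promoters (GRCm38.p6, from 250 bases before to 50 after the start) matched 7 of the 10 members by symbol, all on chromosome 11. Gm4951, F830016B08Rik and Iigp1 were not matched. Windows were searched on both strands for TTCNNNGAA, known as the gamma-activated site, and for GAAA followed after any 2 bases by GAAA, the core of the interferon-stimulated response element bound by interferon regulatory factors. The letters of the response element were found in 6 of the 7 members, against 3.44% of all 32851 windows in the table. Those of the gamma-activated site were found in 5, against 8.30%. Both occurred in Tgtp1, Tgtp2, Gm12250, Igtp and Irgm2, against 0.454% of all windows.

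Whole windows are printed for Igtp and Tgtp2, which hold both motifs, for Irgm1, which holds the response element alone, and for Ifi47, in which neither was found. Capitals mark the motifs, and the positions are chr11:58199306-58199605 for Igtp (plus strand), chr11:49064163-49064462 for Tgtp2 (minus strand), chr11:48871371-48871670 for Irgm1 (minus strand) and chr11:49076337-49076636 for Ifi47 (plus strand).
Igtp: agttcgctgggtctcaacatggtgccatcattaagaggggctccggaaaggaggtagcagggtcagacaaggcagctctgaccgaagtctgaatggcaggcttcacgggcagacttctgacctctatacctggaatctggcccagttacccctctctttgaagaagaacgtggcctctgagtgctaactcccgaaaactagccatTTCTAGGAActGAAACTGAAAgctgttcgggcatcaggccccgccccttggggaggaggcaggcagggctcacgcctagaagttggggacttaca
Tgtp2: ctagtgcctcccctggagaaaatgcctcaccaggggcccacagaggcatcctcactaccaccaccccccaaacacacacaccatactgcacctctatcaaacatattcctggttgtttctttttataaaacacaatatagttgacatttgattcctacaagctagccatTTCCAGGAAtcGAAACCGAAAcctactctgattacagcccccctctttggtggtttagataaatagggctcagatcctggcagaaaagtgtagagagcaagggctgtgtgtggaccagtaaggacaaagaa
Irgm1: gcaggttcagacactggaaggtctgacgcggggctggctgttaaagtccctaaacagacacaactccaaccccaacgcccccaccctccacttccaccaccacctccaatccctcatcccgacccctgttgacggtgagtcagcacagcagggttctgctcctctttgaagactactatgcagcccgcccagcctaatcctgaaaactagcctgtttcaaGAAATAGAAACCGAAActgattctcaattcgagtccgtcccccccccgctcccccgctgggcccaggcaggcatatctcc
Ifi47: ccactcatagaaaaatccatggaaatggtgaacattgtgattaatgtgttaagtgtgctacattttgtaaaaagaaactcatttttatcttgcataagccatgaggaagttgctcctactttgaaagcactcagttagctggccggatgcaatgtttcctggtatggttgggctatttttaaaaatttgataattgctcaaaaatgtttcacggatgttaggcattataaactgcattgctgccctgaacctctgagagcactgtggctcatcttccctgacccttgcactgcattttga

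In Igtp, Irgm2, Tgtp1 and Tgtp2 the gamma-activated site was followed after 2 bases by the response element. It began 45 bases before the start in Igtp, 75 in Irgm2, 88 in Tgtp1 and 81 in Tgtp2. This joint pattern, with any bases in the gap and defined after these windows had been read, occurred in 5 of the 32851 windows, namely these 4 members and Gm12185. These genes are related copies, so their windows are not independent of each other. In Irgm1 a pair of overlapping response elements began 30 and 24 bases before the start. A match of letters is a description and does not show binding, and the absence of one in Ifi47 concerns this window only.

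The receptors and transducers of the interferon signal had lower medians than the IRGs, 0.10 for the 4 receptor genes and 0.67 for the signal transducers. Neither ligand reached a mean FPKM of 1, so that no ligand enters these medians. Ifng, which encodes interferon-γ, had 39 reads in PDR and 6 in SKYD, a ratio of FPKM of 6.92 (2.91 to 20.0), and Ifnb1 had 0, which allows up to 3, and 12. The receptor genes were within 2-fold, with log2 differences of -0.55 for Ifngr1, 0.60 for Ifngr2, 0.52 for Ifnar1 and -0.31 for Ifnar2. In signal transduction, Irf1 (1.79) and Irf8 (1.27), transcription factors that act on interferon-responsive promoters, were past 2-fold toward PDR. The kinases Jak1 (-0.10), Jak2 (0.31) and Tyk2 (0.67) and the factor Irf9 (0.45) were within 2-fold. The factor Stat2 (0.79) and Socs1 (-0.99), which inhibits the pathway, were within 2-fold only on the log2(FPKM + 1) scale. As PDR over SKYD ratios of FPKM they were 2.14 (1.84 to 2.48) and 0.460 (0.406 to 0.522).

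The GBPs, large GTPases that act with IRGs on vacuoles, were also mostly higher in PDR. Of 11 GBP genes, 8 were tested and 6 of these passed 2-fold toward PDR, against 7.38% of all tested genes. The median of the 8 was 1.42. Gbp6, one of the 6, passed the filter only through PDR (2.78 and 0.558 FPKM). Gbp2 (130 and 16.8 FPKM), Gbp3 (87.8 and 16.4 FPKM) and Gbp2b (62.4 and 1.62 FPKM) were the most abundant, and Gbp8 had a log2 difference of -0.17. The summed FPKM of the IRGs was 2.47 times that of the GBPs in PDR and 3.01 times in SKYD. Of 5 further interferon-inducible GTPases 2 were tested, Mx1 with 1.13 and Gm8995 with 0.95, the latter 2.18-fold as a ratio of FPKM. Mx1 passed the filter only through PDR (3.07 and 0.856 FPKM). The antiviral gene Mx2 had 40 and 35 reads and was not tested.

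Of 10 other targets of interferon-γ, 8 were tested and 6 were past 2-fold toward PDR, against 7.38% of all tested genes. The median of the 8 was 1.64. The most abundant, the immunoproteasome genes Psmb8, Psmb10 and Psmb9, had 0.93, 0.68 and 1.39. Nos2 (12 and 2 reads) and Ido1 (13 and 18 reads) were under a mean FPKM of 1. Of 10 targets that respond mainly to type I interferon 4 were more than 2-fold higher, against the same 7.38%, with a median of 0.86. By mean level the leading genes were Isg15, an antiviral ubiquitin-like modifier, with 0.17, Ifit3 with 1.87 and Xaf1 with 0.42. The median of the IRG members, 2.17, lay above that of both of these lists, but not above that of every list examined, since the tested B cell markers had 2.49.

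Genes for proteins that bring IRGs to vacuoles were mostly within 2-fold. The ATG8 conjugation genes, which are needed for effectors to reach foreign vacuoles, had a median of -0.25, with 3 above 0 and 7 below. Of these 10 genes 0 were more than 2-fold different. Over all tested genes 7.38% were past 2-fold toward PDR and 6.91% toward SKYD, so in a list this short the count is near those shares. Their most abundant genes, Gabarap, Gabarapl2 and Map1lc3b, had -0.07, -0.39 and -0.46. Of 7 genes of vacuole ubiquitin and its adaptors, the most abundant were Sqstm1 (-0.13), Tax1bp1 (-0.07) and Trim21 (0.99). Optn, an adaptor of selective autophagy, was past 2-fold toward PDR with 1.35 and passed the filter only through PDR (4.08 and 0.991 FPKM). Trim21, an intracellular antibody receptor and ubiquitin ligase, was 2.23-fold higher in PDR as a ratio of FPKM (1.97 to 2.52). The 8 reference genes had a median of 0.16 and all were within 2-fold, with B2m at 0.45, Actb at -0.75 and Rplp0 at 0.15.

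**Figure D5:**
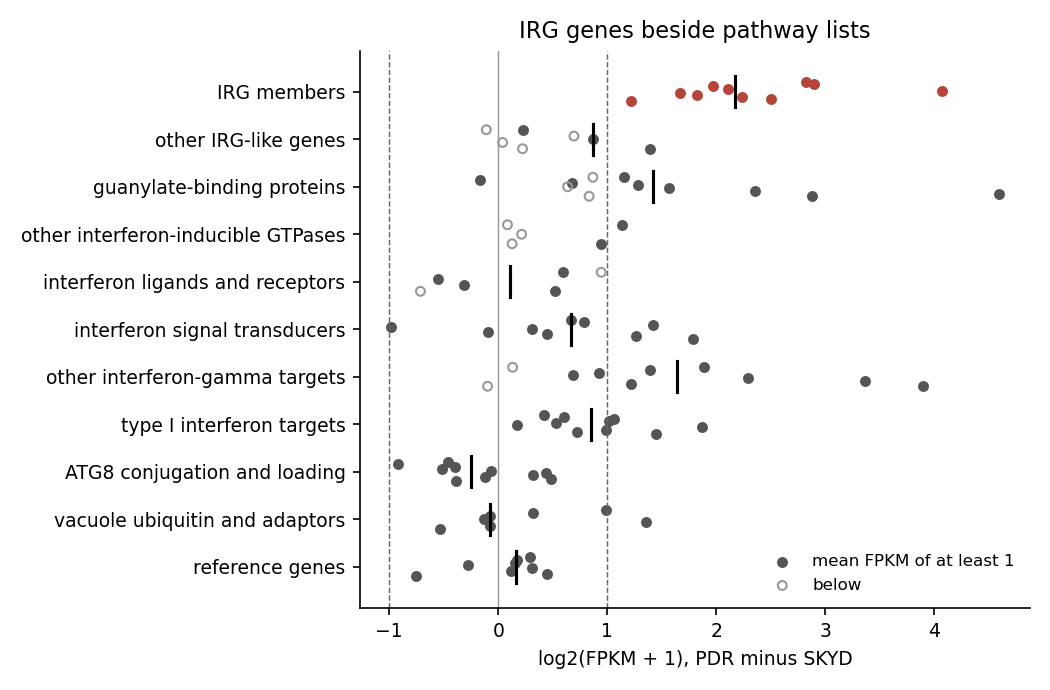
Log2(FPKM + 1) in PDR minus SKYD for the IRG members (red) and the genes of 10 other lists, with filled points for a mean FPKM of at least 1, open points for lower genes, black bars for the median of the filled points where there are at least 3, and dashed lines at a 2-fold difference. The IRG members have a median of 2.17, against 1.64 for the other interferon-γ targets and 1.42 for the guanylate-binding proteins, and the ATG8 genes spread on both sides of 0.

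Protein-coding genes were ranked by how close their levels lay to the point of the members' medians, by distance in log2(FPKM + 1) over the 2 libraries. Among the closest were Tnfrsf13c, the receptor for the B cell survival factor BAFF, Gzmb, which encodes a granzyme, Cd300e, a myeloid receptor, and Pou2af1, a B cell transcription coactivator. Their distances were 0.33, 0.53, 0.71 and 0.78. Likeness over so few libraries says only that level and difference were close.

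Markers of other cell types differed between the libraries beside the IRGs, and their part in the IRG differences was not tested. The counts below stand against 7.38% of all tested genes past 2-fold toward PDR and 6.91% toward SKYD. The macrophage list, with reads on all 8 genes in both libraries, summed to 22836 FPKM in PDR and 42857 FPKM in SKYD, of which Lyz2 alone held 22217 and 41336 FPKM. Of its genes 2 were above 0, Csf1r with 0.35 and Fcgr1 with 0.54, and 6 were below. None was past 2-fold toward PDR, and the most abundant, Lyz2, Cd14 and Cd68, had log2 differences of -0.90, -2.65 and -0.58. The sort markers Adgre1 (F4/80) and Itgam (CD11b) had -0.10 and -0.64. Of 5 B cell markers 4 were tested and all 4 were past 2-fold toward PDR (1663 and 380 FPKM summed), with Cd79b at 2.25, Cd79a at 1.70 and Ms4a1 at 3.07. Of 9 markers of effector T and NK cells, which can secrete interferon-γ, 8 were tested (539 and 214 FPKM over the list). Of these 6 were past 2-fold toward PDR, led in level by Gzma (1.15), Nkg7 (1.48) and Gzmb (3.43), and Cd3e was past 2-fold toward SKYD. All 5 hepatocyte markers were past 2-fold toward PDR (1278 and 415 FPKM), with Fabp1 at 1.29, Apoa1 at 1.84 and Alb at 1.81. So were 2 of 5 neutrophil markers (4308 and 3381 FPKM), Ly6g and Mpo, whereas the abundant S100a9, S100a8 and Retnlg had 0.40, 0.37 and -0.32. Of 6 markers of immature T cells 5 were past 2-fold toward SKYD (60.4 and 797 FPKM), with Cd8b1 at -3.72 and Dntt at -6.86 but Cd1d1 at 0.84, and Rag1, Rag2 and Ptcra had 0 reads in PDR. Of 5 endothelial markers (5.02 and 3.07 FPKM) Pecam1 was tested, with 0.45, and Cldn5 and Cdh5 were under a mean FPKM of 1. By median, the macrophage list had -0.58, the effector T and NK cell list 1.29, the hepatocyte list 1.81, the neutrophil list 0.40 and the immature T cell list -3.85. Of the genes counted here Prf1 and Mpo passed the filter only through PDR, and Rag1, Rag2, Dntt and Ptcra only through SKYD.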

How the data were processed

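RNA of sorted aortic macrophages was sequenced as 1 pooled library per group. After filtering, the authors aligned reads by TopHat (2.0.9), counted them on genes by HTSeq (0.6.1) and deposited FPKM for 54532 genes with length, position and biotype. The labels name mm9, but the positions of 9 of the 10 members, all but Iigp1, equal those of GENCODE vM21 (GRCm38). A read was taken as the smallest step of FPKM times length, which gave whole reads (tolerance 0.05) for 100% of genes above 0. The reads sum to 23086889 (PDR) and 25427863 (SKYD), and 3 reads, the limit for a count of 0, are 1.3e-05% and 1.18e-05% of these.

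Members and lists were chosen with earlier results of these data known. Genes named were all members and IRG-like genes, all ligands, receptors and transducers, the 3 most abundant genes of each further list, the nearest genes and the extreme neighbours. Of these, 2 genes are not reported here. A few other genes were picked with their values known. Limits are Clopper-Pearson for a gene, Poisson for a level and a normal approximation of Poisson error for sums. Strand in counting was not given in the sources used here. On libraries simulated with counting error only, reads were recovered for all 54532 genes and 95.6% of intervals held the true fold. This checks the calculation and cannot show how far the folds would vary between mice. Alternatives were pseudocounts of 0.1 and 0.01, TPM, centring on a median or a 30% trimmed mean, read sums as library size, filters, a 4-fold threshold and leaving out members. The tools were matplotlib 3.10.9, scipy 1.17.1, pandas 2.3.3, numpy 2.4.6 and Python 3.11.15.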

Additional observations from a re-analysis of the deposited data

How the results depend on the processing

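No paired analysis was possible because each group has 1 library. All 10 members stayed above 0 and more than 2-fold higher in PDR under both other pseudocounts, TPM, both centrings, read sums as library size and no filter on FPKM. With a mean FPKM of at least 5 (without F830016B08Rik) or protein-coding genes only (without Gm12250), 9 members remained to be counted, and all 9 were more than 2-fold higher. At the 4-fold threshold on the log2(FPKM + 1) scale 6 members were counted. The lowest member difference, 1.22 for F830016B08Rik, became 2.53 at a pseudocount of 0.1, 2.91 at 0.01 and 1.57 in TPM. At both smaller pseudocounts the lowest member was Igtp, with 1.69. The median of the members became 2.55 and 2.59 at these pseudocounts, and 2.04 without Tgtp1 and Tgtp2. The log2 ratio of summed levels, 2.21, was 2.10 without Iigp1 and 2.11 without Tgtp1 and Tgtp2. A smaller pseudocount raises the difference of low genes by its construction. With a pseudocount of 0.1, the share of tested genes past 2-fold in the direction of PDR was 10.2%. The number of listed genes outside the family more than 2-fold higher in PDR went from 39 to 44 there, with 1 more among the IRG-like genes, the signal transducers, the further GTPases, the vacuole ubiquitin genes and the type I targets each. With 1 library per group, the spread between mice was not measured, and F830016B08Rik, with 20 reads in SKYD, is the member most limited by depth.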
